A study of Mus musculus with 3 samples.

Results

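Slow fibre contractile and calcium genes were described in mouse hindlimb muscle. They are a set of 10 genes chosen by symbol for their known place in slow muscle fibres: Myh7, Myl2, Myl3, Tnnt1, Tnni1, Tnnc1, Tpm3, Atp2a2, Casq2 and Csrp3. All 10 were found among the 42258 genes listed, and all 10 passed the filter on low values (an average of 1 CPM or more across the libraries, which 12966 genes met; CPM are counts per 1000000). The tissue was gastrocnemius with plantaris of male mice. The young group was 24 weeks old, with a strain label of C57BL/7J and a diet that the labels do not give. The other 2 groups, labelled C57BL/6J, were 87 weeks old and had entered the diets at 75 weeks for 12 weeks. The old control diet lacked eicosapentaenoic acid (EPA, a marine omega-3 fatty acid), and the old EPA diet held it at 1 wt%. RNA was pooled within each group, from 3 young, 6 old control and 6 old EPA mice, so that 1 library stands for each group. No spread between mice can be had from these files, no difference between groups can be tested, and the words higher and lower describe 3 libraries only.

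Skeletal muscle fibres use different versions of the same sarcomere parts. Slow (type I) fibres carry their own myosin heavy and light chains, troponins and calcium pump, many of which are shared with the heart, and they contract slowly and resist fatigue. Gastrocnemius and plantaris of the mouse are mostly fast muscles, in which slow fibres are a minority. In whole muscle, fewer slow fibres and less slow RNA in each fibre cannot be told apart.

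The genes do not overlap each other in the genome (GRCm38, GENCODE M21), but some share a chromosome. Myl2 (chr5:122100951-122113472) lies near Atp2a2 (chr5:122453513-122502225). Tpm3 shares a chromosome with Casq2, and Tnnt1 with Csrp3. Myh7 (ENSMUSG00000053093) spans chr14:54970684-54994626 on the minus strand, and its neighbour is Myh6, the cardiac alpha myosin heavy chain, 3756 bases away. Tnnc1 (ENSMUSG00000091898) is on the same chromosome at chr14:31208312-31211729. Tnni1 (ENSMUSG00000026418) is at chr1:135779434-135810989 and Tnnt1 (ENSMUSG00000064179) at chr7:4504570-4516382. Each lies beside a cardiac troponin gene, Tnnt2 at 25364 bases from Tnni1 and Tnni3 at 1922 bases from Tnnt1. The sequences upstream of these 4 genes are shown because they had the largest ratios of old control to young in the set. Each is the 250 bases before a transcription start of RefSeq (GRCm38.p6), read 5′ to 3′ on the strand of the gene. The start is the one nearest to that of the principal GENCODE transcript. Capitals mark matches on either strand to the E-box (CANNTG, bound by myogenic factors), the MCAT element (CATTCC, bound by TEAD factors), the TATA box (TATAAA), a SOX element (AACAAT), and the MEF2 and CArG box motifs.
Myh7 (chr14:54994627-54994876): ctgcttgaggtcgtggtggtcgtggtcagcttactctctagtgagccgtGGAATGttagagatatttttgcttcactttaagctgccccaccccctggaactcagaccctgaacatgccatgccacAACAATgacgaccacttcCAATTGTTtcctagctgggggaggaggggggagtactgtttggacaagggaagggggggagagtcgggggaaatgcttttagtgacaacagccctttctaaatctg
Tnnt1 (chr7:4515976-4516225): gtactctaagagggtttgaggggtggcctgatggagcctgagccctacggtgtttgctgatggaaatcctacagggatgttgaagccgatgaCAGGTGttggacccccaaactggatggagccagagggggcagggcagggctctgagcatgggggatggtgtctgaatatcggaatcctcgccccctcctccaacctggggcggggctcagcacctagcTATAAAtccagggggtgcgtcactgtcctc
Tnni1 (chr1:135799171-135799420): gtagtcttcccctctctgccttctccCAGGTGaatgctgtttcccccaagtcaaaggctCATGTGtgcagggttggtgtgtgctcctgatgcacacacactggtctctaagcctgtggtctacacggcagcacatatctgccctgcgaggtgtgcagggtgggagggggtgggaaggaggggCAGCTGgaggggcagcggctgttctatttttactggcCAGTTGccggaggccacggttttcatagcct
Tnnc1 (chr14:31208062-31208311): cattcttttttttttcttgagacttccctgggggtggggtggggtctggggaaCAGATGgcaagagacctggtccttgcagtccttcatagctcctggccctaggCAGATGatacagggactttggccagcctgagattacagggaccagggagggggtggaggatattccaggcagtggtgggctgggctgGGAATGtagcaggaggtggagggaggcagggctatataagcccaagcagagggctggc

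RefSeq windows were matched for 9 of the 10 genes. The Myl2 window lies before a start 7762 bases from that of its principal GENCODE transcript, while those of the other 8 lie at starts within 32 bases of theirs. The E-box was found in 9 of 9 upstream windows, against 66.2% of all 32851 windows of this length. The MCAT element was found in 3 of 9 (Myh7, Myl3 and Tnnc1), against 12.6%. In Myh7 its match lies 201 to 196 bases before the start, and in Tnnc1 58 to 53 bases before it. The SOX element was found in 2 of 9 (Myh7 and Myl3), against 9.42%, with 2 matches in Myh7, 1 of which overlaps the E-box. The TATA box was found in 2 of 9 (Tnnt1 and the distant window of Myl2), against 12.4%, and in Tnnt1 it lies 30 to 25 bases before the start. A MEF2 motif was found in Casq2 alone and a CArG box in Myl3 alone, against 2.92% and 1.47% of all windows. These are matches of letters, and the data hold no measure of factor binding.

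The comparison of old control with young asks how old muscle on the control diet differs from young muscle. In both comparisons with young, age goes with strain label and number of mice pooled, and the young diet is not given. Age cannot be told apart from these. The slow genes were mostly higher in the old control library. Of the 10, 9 had a log2 ratio above 0 (47.5% of all genes compared did), and 5 were at least 1.5-fold higher, where 2.69% of all genes were. None was at least 1.5-fold lower (2.55% of all genes). Past 2-fold were Myh7 and Tnni1, where 0.895% of all genes were, and at least 25% higher were 7 of the 10 (9.13% of all genes), with 1 at least 20% lower (10.4%). The median log2 ratio of CPM + 1 was 0.60, beside -0.01 over all genes compared. The 5 were Myh7, Myl2, Tnnt1, Tnni1 and Tnnc1, and Atp2a2 lay just below the threshold at 0.57. When counts were divided by the total of their own library in place of the deposited CPM, Atp2a2 also passed, which made 6 of the 10. The summed level of the 10 genes was 804 CPM in young, 1189.8 CPM in old control and 983 CPM in old EPA.

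**Figure D1:**
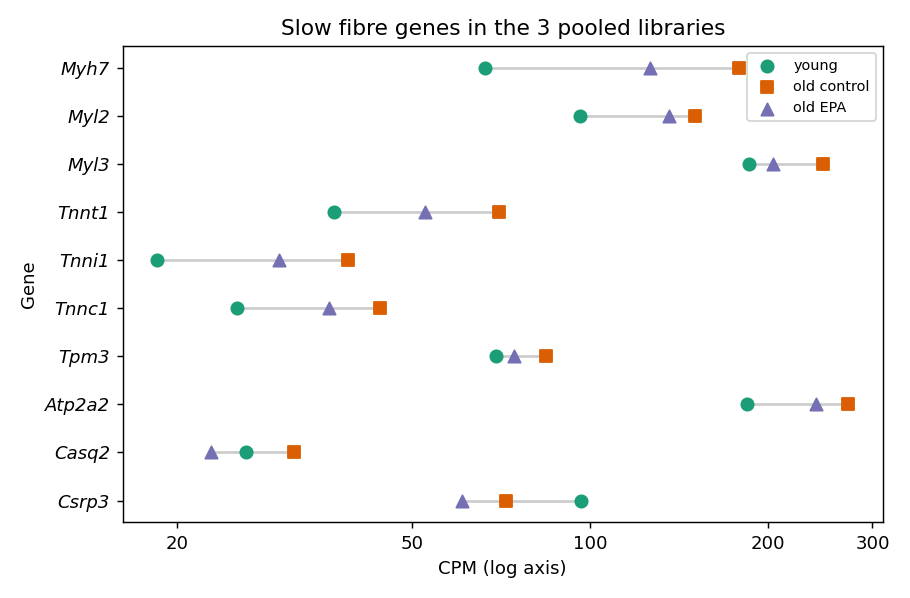
Level of each slow fibre gene in CPM (log axis) in the young, old control and old EPA libraries, 1 pooled library per group and 1 point per library. For 8 genes the points run from young through old EPA to old control, while Casq2 is lowest in old EPA and Csrp3 is highest in young.

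Among the thick filament genes, Myh7 encodes the motor of slow fibres, the slow (beta) myosin heavy chain. It stood at 66.4 CPM in young, 178 CPM in old control and 126 CPM in old EPA. The old control library was the highest and the young library the lowest. The ratio of counts was 2.73 for old control over young, with a 95% counting interval of 2.63 to 2.84 (exact Clopper-Pearson), the highest of the set. Ratios of counts are taken over each library's own total, and so differ slightly from ratios of the deposited CPM. This interval and those that follow cover counting error only, not mice or library preparations. Myl2, the slow regulatory light chain, stood at 95.9 CPM in young, 150.03 CPM in old control and 136 CPM in old EPA. Its ratio of old control to young was 1.59 (1.54 to 1.65). Myl3, the slow essential light chain, stood at 185 CPM in young, 248 CPM in old control and 204 CPM in old EPA, with a ratio of 1.35 (1.32 to 1.39). Per kilobase of exon (all annotated exons of a gene joined), the light chains exceeded the heavy chain in every library. In young muscle Myh7 was at 7.70 CPM per kb, Myl2 at 49.2 and Myl3 at 90.7, and in old control they were at 20.7, 76.9 and 121 CPM per kb. The genes of 1 filament differed in the size of the ratio, and their counting intervals did not overlap.

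Among the thin filament genes, the 3 slow troponins were alike in pattern. Troponin binds calcium and frees actin for myosin: Tnnc1 encodes the calcium sensor, Tnni1 the inhibitory subunit and Tnnt1 the subunit that anchors the complex to tropomyosin. Tnni1 stood at 18.5 CPM in young, 38.97 CPM in old control and 29.7 CPM in old EPA, with a ratio of old control to young of 2.12 (1.97 to 2.28). Tnnt1 stood at 36.9, 70.2 and 52.5 CPM in the same order, with a ratio of 1.85 (1.75 to 1.95). Tnnc1 stood at 25.3, 44.1 and 36.1 CPM, with a ratio of 1.76 (1.65 to 1.88). In each of the 3, the old control library was highest and the young library lowest. The counting intervals of Tnnt1 and Tnnc1 overlapped, and that of Tnni1 lay above both. Tpm3, which encodes the slow alpha-tropomyosin in muscle and other forms in other cells, differed less. It stood at 69.3 CPM in young, 84.1 CPM in old control and 74.4 CPM in old EPA, with a ratio of 1.23 (1.18 to 1.29). Reads of Tpm3 can match copies of the gene. Its copy Tpm3-rs7 stood at 10.2, 9.04 and 8.23 CPM, lower in old control than in young, and Tpm3-rs2 was listed at 0 in all 3 libraries.

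The calcium genes differed from each other. Atp2a2 encodes SERCA2, the pump that returns calcium to the sarcoplasmic reticulum in slow fibres and heart, and its muscle and general forms are counted together here. It stood at 184 CPM in young, 273 CPM in old control and 241 CPM in old EPA. The ratio of counts of old control to young was 1.51 (1.47 to 1.55), and per kilobase of exon the levels were 30.3, 44.9 and 39.6 CPM. Casq2 encodes the calsequestrin of heart and slow fibres, which stores calcium in the reticulum. It stood at 26.2 CPM in young, 31.5 CPM in old control and 22.8 CPM in old EPA. Its ratio of old control to young was 1.17 (1.09 to 1.26), the lowest among the 9 genes that were higher in old control.

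Csrp3 ran against the rest. It encodes muscle LIM protein, a Z-disc protein of slow muscle and heart that responds to mechanical load. It stood at 96.6 CPM in young, 72.01 CPM in old control and 60.6 CPM in old EPA. The ratio of old control to young was 0.727 (0.698 to 0.757), so that Csrp3 was the only gene of the 10 that was lower in old control, at a log2 ratio of -0.42.

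**Figure D2:**
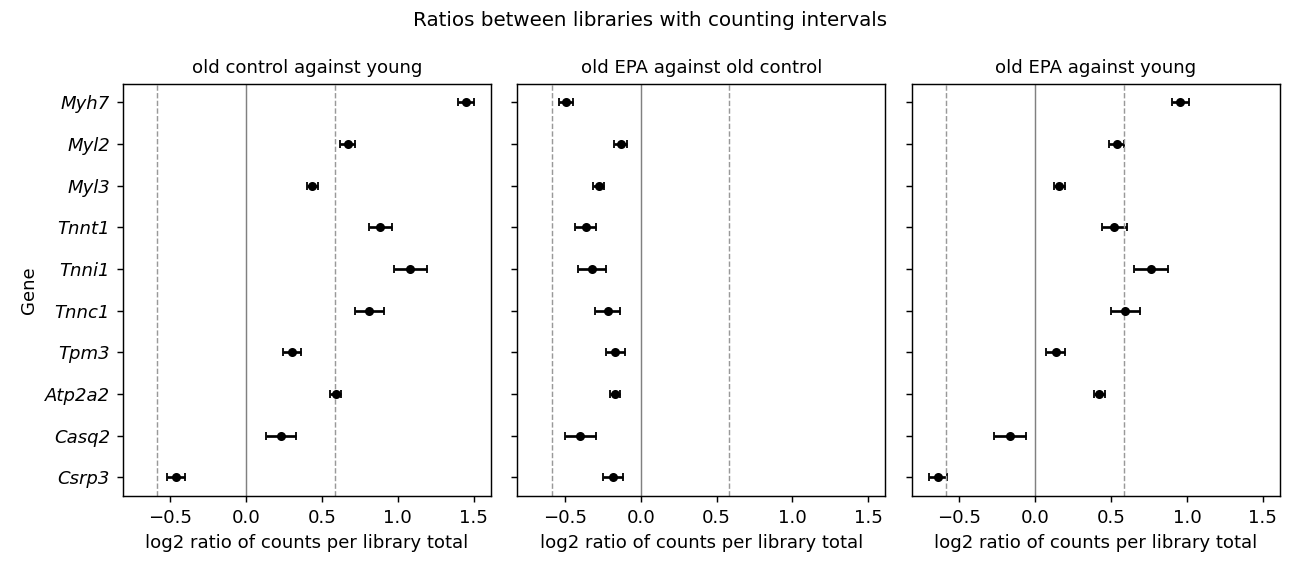
Log2 ratio of recovered counts per library total for each slow fibre gene (points) with 95% Clopper-Pearson counting intervals (bars) in 3 comparisons, each of 1 library against 1, with dashed lines at 1.5-fold. Myh7 and Tnni1 lie farthest to the right in old control against young, all 10 genes lie left of 0 in old EPA against old control, and Casq2 and Csrp3 lie left of 0 in old EPA against young.

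Setting old EPA beside old control addresses what goes with EPA in the diet of old mice. It shares the old control library with the comparison above, so values in both are not independent. All 10 genes were lower in old EPA, with log2 ratios from -0.50 to -0.14 and a median of -0.28, beside -0.03 over all genes compared. Of all genes, 55.8% had a ratio below 0. None of the 10 was 1.5-fold lower, where 1.91% of all genes were, and none was 1.5-fold higher, where 1.69% were. At a milder threshold of 20% lower, 4 of the 10 passed (Myh7, Tnnt1, Tnni1 and Casq2), where 7.38% of all genes did, and none was 25% higher, where 5.38% were. Tnni1 did not pass when counts were divided by the total of their own library. The ratio of counts was 0.711 (0.69 to 0.733) for Myh7, 0.76 (0.707 to 0.816) for Casq2, 0.778 (0.741 to 0.816) for Tnnt1 and 0.801 (0.752 to 0.854) for Tnni1. Those of Myl3 and Tnnc1 were 0.826 (0.806 to 0.846) and 0.86 (0.811 to 0.911). Myl2 had the smallest difference, at 0.913 (0.885 to 0.941). Csrp3 was lower here as well, at 0.882 (0.843 to 0.923).

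Set directly against young, the old EPA library was higher in 8 of the 10 slow genes (43.3% of all genes had a ratio above 0), with a median log2 ratio of 0.44 beside -0.04 over all genes. Myh7 and Tnni1 were at least 1.5-fold higher, where 2.4% of all genes were, and Tnni1 did not pass with a pseudocount of 5 CPM. With the trend of the ratio with exon length subtracted, Tnnc1 also passed, which made 3 of the 10. Csrp3 was at least 1.5-fold lower, where 2.96% of all genes were. At least 25% higher were 6 of the 10 (7.43% of all genes), and none was 2-fold higher (0.802%) or lower (0.802%). The ratio of counts to young was 1.94 (1.87 to 2.02) for Myh7, 1.70 (1.57 to 1.83) for Tnni1 and 0.641 (0.614 to 0.669) for Csrp3. Casq2 was also below young in old EPA, at 0.891 (0.827 to 0.96). Tpm3 and Myl3 were nearest to young on the upper side, at 1.098 (1.051 to 1.147) and 1.12 (1.09 to 1.15). The order of old control above old EPA above young was seen in 8 of the 10, and in 18.4% of all genes compared.

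A slow gene can also be set against its fast counterpart within a library. Shares below are shares of recovered counts, whereas slow to fast ratios are ratios of the deposited CPM, whose divisor could differ between the genes of a pair. In young muscle the slow form made up 0.233% of counts for myosin heavy chain (Myh7 among Myh7, Myh4, Myh1 and Myh2; 95% exact Clopper-Pearson interval 0.226% to 0.241%). It made up 0.487% (0.477% to 0.496%) in old control and 0.38% (0.371% to 0.389%) in old EPA. Per length of exon, the Myh7 shares were 0.165%, 0.342% and 0.268%. That length joins all annotated exons of a gene, 8616 bases for Myh7 and 6016 bases for Myh4, so these shares depend on the annotation. The Myh7 ratio to the fast chains was 2.08 times as high in old control as in young, less than the ratio of its counts because the fast chains were also higher in old control. Myh4, the fastest (IIb) chain, stood at 25129.7 CPM in young, 32200.5 CPM in old control and 29432 CPM in old EPA, Myh1 (IIx) at 1675, 2447 and 2118 CPM and Myh2 (IIa) at 1638, 2051 and 1578 CPM. Within the 4 chains, Myh2 took 5.87%, 5.48% and 4.85% of counts, Myh1 5.83%, 6.55% and 6.54%, and Myh4 88.1%, 87.5% and 88.2%. The slow chain thus stayed the least abundant of the 4 in all 3 libraries.

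**Figure D3:**
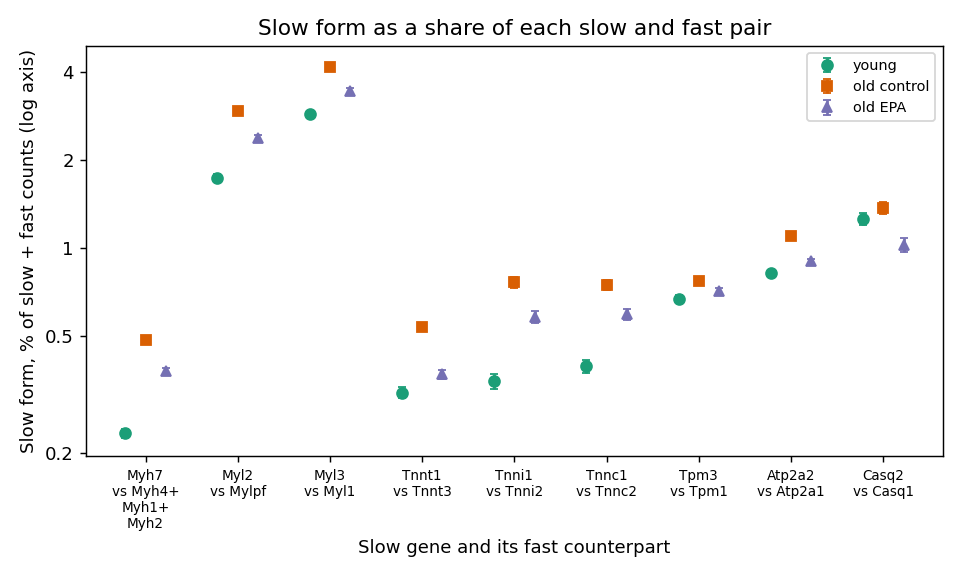
Slow form as a percent of slow plus fast counts (log axis) for 9 slow genes and their fast counterparts in the 3 libraries, with 95% Clopper-Pearson counting intervals (bars). In every pair the old control library is highest, and in every pair except Casq2 the young library is lowest.

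All 9 pairs had a higher slow to fast ratio in old control than in young, with a median log2 difference of 0.77 and a range of 0.13 to 1.08 (a median of 0.74 from counts). All 9 had a lower ratio in old EPA than in old control, with a median of -0.36 and a range of -0.58 to -0.07. In old EPA against young, 8 of 9 were higher, with a median of 0.27. Troponin I and myosin heavy chain had the largest differences between old control and young, with log2 differences of 1.08 and 1.06, and their order changed with the setting. Tnni1 took 0.351% (0.33% to 0.373%) of Tnni1 and Tnni2 counts in young, 0.764% (0.733% to 0.797%) in old control and 0.58% (0.553% to 0.609%) in old EPA. Its fast partner Tnni2 was nearly level, at 5102 CPM in young, 5069 CPM in old control and 5113 CPM in old EPA. Troponin T had the largest difference between old EPA and old control. Tnnt1 took 0.321% (0.308% to 0.335%) of Tnnt1 and Tnnt3 counts in young, 0.536% (0.52% to 0.553%) in old control and 0.371% (0.358% to 0.385%) in old EPA. There the fast partner Tnnt3 was highest in old EPA, at 14106 CPM, against 11629 CPM in young and 12639 CPM in old control.

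The light chains had the largest slow shares, per count and per length of exon. Myl3 took 2.88% (2.83% to 2.94%) of Myl3 and Myl1 counts in young, 4.17% (4.1% to 4.24%) in old control and 3.45% (3.39% to 3.51%) in old EPA. Myl2 took 1.74% (1.7% to 1.79%), 2.94% (2.88% to 3.00%) and 2.38% (2.33% to 2.43%) of Myl2 and Mylpf counts. For troponin C, Tnnc1 took 0.395% (0.375% to 0.416%) of Tnnc1 and Tnnc2 counts in young, 0.748% (0.719% to 0.778%) in old control and 0.595% (0.569% to 0.621%) in old EPA. Fast Tnnc2 shares 592 exon bases, 74.00% of its length, with Ube2c on the opposite strand. Ube2c, a cell division gene, was listed at 1064 CPM in young, 1013 CPM in old control and 1043 CPM in old EPA. Whether strand was used in the counting is not given in the sources used here, so the level of Tnnc2 is uncertain.

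The calcium pump and calsequestrin pairs differed least between old control and young, together with tropomyosin. Atp2a2 took 0.821% (0.806% to 0.837%) of Atp2a2 and Atp2a1 counts in young, 1.097% (1.08% to 1.11%) in old control and 0.903% (0.888% to 0.918%) in old EPA. Atp2a1, the fast SERCA1 pump, shares 763 exon bases (21.9% of its length) with Rabep2 on the opposite strand, and its level is likewise uncertain. Tpm3 took 0.67% (0.649% to 0.691%), 0.771% (0.749% to 0.793%) and 0.712% (0.691% to 0.734%) of Tpm3 and Tpm1 counts. Casq2 took 1.26% (1.2% to 1.32%) of Casq2 and Casq1 counts in young, 1.38% (1.31% to 1.44%) in old control and 1.03% (0.973% to 1.08%) in old EPA. The young and old control intervals of Casq2 overlapped, and the old EPA interval lay below both.

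Other genes of slow fibres, taken from a list of 15 of which 14 passed the filter, differed less than the 10 genes. Their median log2 ratio of old control to young was 0.11. Of the 14, 1 was at least 1.5-fold higher (2.69% of all genes) and none was lower (2.55%). That gene was Sln, which encodes sarcolipin, a small inhibitor of SERCA pumps. Sln stood at 1.253 CPM in young, 3.30 CPM in old control and 2.14 CPM in old EPA, on 72, 185 and 121 counts, and did not pass 1.5-fold with a pseudocount of 5 CPM. In old EPA against old control, 13 of the 14 were lower, where 55.8% of all genes were. With median of ratios or trimmed mean of M values scaling, 12 were. None passed 1.5-fold, and the median was -0.16. Beside the 13, the light chain gene Myl6b was higher, at 5.30, 4.85 and 7.03 CPM. The 14 genes compared in the fast fibre list had medians of 0.13 in old control against young and 0.01 in old EPA against old control, and none of them passed 1.5-fold in either comparison. Mybpc2, fast myosin binding protein C, was the nearest. It passed in old control against young with median of ratios or trimmed mean of M values scaling or with the trend with exon length subtracted. It stood at 3767 CPM in young, 5599 CPM in old control and 5588 CPM in old EPA.

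**Figure D4:**
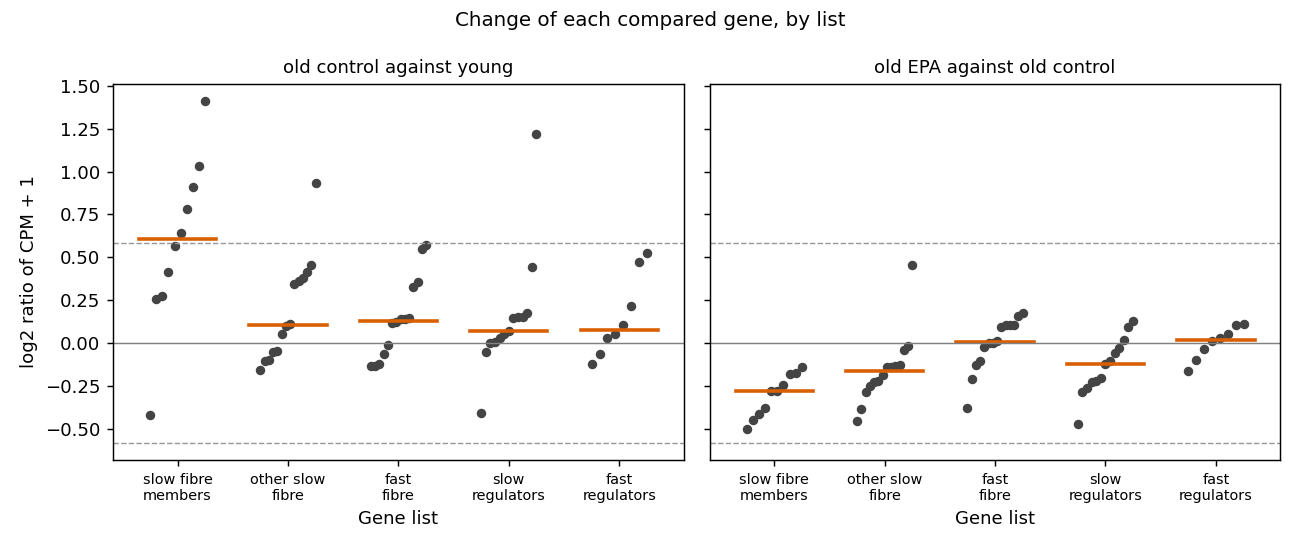
Log2 ratio of CPM + 1 of each compared gene (points, sorted within a list) and the median (orange line) for the 10 slow fibre genes, other slow fibre genes, fast fibre genes, and regulators of the slow and fast programmes, with dashed lines at 1.5-fold. In old control against young, 5 of the 10 slow fibre genes lie above the upper dashed line, and no gene of the fast fibre list does, although Mybpc2, the nearest, passes under other scalings. In old EPA against old control, no gene of any of these lists passes 1.5-fold.

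Slow fibre genes are known to be switched on by calcineurin and NFAT, by MEF2 factors and by PGC-1alpha, and to be held down in fast fibres by SOX6. The 13 listed regulators of the slow programme had a median log2 ratio of 0.07 in old control against young. Of them, 1 was at least 1.5-fold higher (2.69% of all genes) and none was lower (2.55%). That gene was Ppp3cb, a catalytic subunit of calcineurin, at 119 CPM in young, 279 CPM in old control and 259 CPM in old EPA. Its relatives Ppp3ca and Ppp3r1 were nearly level, at 228, 237 and 227 CPM and at 160.4, 169 and 155 CPM. Ppp3cb was close in both old libraries, with a ratio of counts of old EPA to old control of 0.973 (0.951 to 0.995). Of the MEF2 genes listed, Mef2c stood at 458, 623 and 541 CPM, in the order of Myh7, with a ratio of counts of old control to young of 1.37 (1.35 to 1.39). Mef2d stood at 206, 229 and 224 CPM. The NFAT genes listed, Nfatc1 and Nfatc4, stood at 61.6, 68.2 and 69.1 CPM and at 5.13, 5.91 and 4.66 CPM. Ppargc1a, which encodes PGC-1alpha, stood at 76.4, 85.1 and 61.2 CPM, lowest in old EPA. Esrrg, a nuclear receptor gene of oxidative fibres, stood at 45.8, 34.2 and 29.1 CPM, and was the 1 gene of this list at least 1.5-fold lower in old EPA than in young, with Ppp3cb the 1 gene higher. Esrrg did not pass with a pseudocount of 5 CPM. None of the 8 regulators of the fast programme passed 1.5-fold in any comparison. Sox6 stood at 90.3 CPM in young, 97.02 CPM in old control and 86.4 CPM in old EPA.

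Many of the slow genes are also heart genes, so 13 markers of cardiac muscle were read beside them. Nppb, Myl7, Gata4 and Nkx2-5 were at 0 in all 3 libraries. Each was thus under a chosen floor of 3 counts (0.0523 CPM in young, 0.0521 CPM in old control and 0.0536 CPM in old EPA). This floor is not a detection limit of the libraries, which hold lower values above 0. Nppa was at 0 in young and old control and at 0.191 CPM, on 11 counts, in old EPA. The summed level of the 13 was 15.7 CPM in young, 22.3 CPM in old control and 17.3 CPM in old EPA. Tnni3, the cardiac neighbour of Tnnt1, stood at 0, 0.0867 and 0.425 CPM, and Tnnt2, the cardiac neighbour of Tnni1, at 2.58, 2.69 and 2.44 CPM. Myh6, the cardiac neighbour of Myh7 and close to it in sequence, stood at 3.57, 6.825 and 3.36 CPM, highest in old control as Myh7 was. The Myh6 ratio of old control to young was 1.92 (1.62 to 2.29), and that of old EPA to old control was 0.517 (0.433 to 0.616). Whether Myh6 shares reads with Myh7 was not measured, so its level is uncertain. Hcn4, a pacemaker channel gene, stood at 1.11, 3.13 and 3.09 CPM, higher than young in both old libraries and close between them. Of the 4 compared cardiac markers, 2 (Myh6 and Hcn4) were at least 1.5-fold higher in old control than in young (2.69% of all genes).

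The 5 genes of embryonic muscle did not share 1 pattern across the 3 libraries. All 4 that passed the filter were lower in old EPA than in old control (55.8% of all genes were), with a median log2 ratio of -0.39. Of these 4, Myh3 was at least 1.5-fold lower, where 1.91% of all genes were. The embryonic myosin heavy chain Myh3 stood at 2.22 CPM in young, 7.76 CPM in old control and 4.06 CPM in old EPA, in the order of Myh7. Actc1, the cardiac alpha-actin that is also made in developing muscle, was highest in young and lowest in old EPA, at 81.8, 48.5 and 41.9 CPM. Myh8, the perinatal myosin heavy chain, was nearly level, at 124, 123 and 119 CPM. The summed level of all 5 genes was 216 CPM in young, 189.98 CPM in old control and 172 CPM in old EPA.

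Some markers of other cells and properties of the libraries moved with the groups. The summed level of 5 red cell markers was 1508 CPM in young, 561 CPM in old control and 565 CPM in old EPA, that of 6 endothelial markers 381, 302 and 296 CPM, and that of 6 tendon markers 292, 339 and 338 CPM. The most abundant red cell markers, the globin genes Hba-a1, Hba-a2, Hbb-bs and Hbb-bt, stood at 479, 427, 388 and 202 CPM in young and at 179.98, 158, 146 and 70.6 CPM in old control. Of single markers at least 1.5-fold apart in some comparison, the endothelial gene Cldn5 stood at 24.1, 9.22 and 13.003 CPM, the tendon genes Tnmd at 5.23, 9.51 and 7.66 CPM and Comp at 9.60, 11.8 and 17.3 CPM.

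Other cell markers differed between the old libraries. The 6 adipocyte markers summed to 167 CPM in young, 107 CPM in old control and 142 CPM in old EPA, the reverse of the order of the slow genes. All 6 were higher in old EPA than in old control, where 5725 of all 12966 genes were, with a median log2 ratio of 0.21. Among them Cfd stood at 109.7, 59.1 and 85.3 CPM and Lep, the leptin gene, at 2.46, 5.37 and 5.62 CPM. Cfd made up most of the sum in each library. Lep and Adipoq, the latter at 16.8, 15.9 and 18.4 CPM, did not follow the order of the sum. The 6 Schwann cell markers summed to 175, 177 and 193 CPM, and all 6 were higher in old EPA than in old control, with a median of 0.16. Pmp22, a myelin gene among them, stood at 42.3, 64.6 and 68.999 CPM. Among 8 markers of smooth muscle and pericytes, the old EPA library was below old control in 7 (55.8% of all genes), with a median of -0.19. Their sum was highest in old EPA, at 3855, 4346 and 4712 CPM, most of which came from the desmin gene Des, also expressed by muscle fibres, at 3183, 3678 and 4130.1 CPM. The 6 macrophage markers were nearly level, at 228, 231 and 236 CPM. Mitochondrially encoded genes took 22.7% of counts in young, 21.2% in old control and 19.6% in old EPA. Across genes, which are not independent replicates, the log2 ratio went with exon length in old control against young (Spearman's rho 0.26 over 12965 genes) and, in the opposite direction, in old EPA against old control (rho -0.20). The part of these markers in the differences of the slow genes was not tested. With the length trend subtracted, the medians of the 10 slow genes were 0.64 in old control against young and -0.30 in old EPA against old control.

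The 6 genes whose pair of log2 ratios (old control against young, old EPA against old control) lay nearest to the medians of the slow genes were Gfpt2, Pcdhgc3, Tafa5, Ddr2, Myoz3 and Zfp423. They were sought among 9128 genes outside the set that averaged 5 CPM or more. Symbols of the kinds given to predicted genes, clones and pseudogenes were left out. Likeness was the Euclidean distance of the 2 ratios, from 0.00825 for Gfpt2 to 0.0383 for Zfp423, over 3 libraries. Gfpt2, an enzyme of hexosamine synthesis, stood at 20.4 CPM in young, 31.7 CPM in old control and 25.9 CPM in old EPA. Myoz3, a Z-disc protein gene of the calsarcin family, stood at 27.7, 41.8 and 34.9 CPM, and Ddr2, a collagen receptor gene, at 26.4, 41.6 and 34.2 CPM. With 3 libraries such likeness rests on few points.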

How the data were processed

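The deposited tables give 1 value per gene in CPM (counts per 1000000), which the authors calculated, per the file headers. HISAT2 2.1.0, StringTie 1.3.4d, R 3.5.0 and build GRCm38 are named in the submitters' processing notes, with no roles given. Every value became a whole count (within 1e-06) when multiplied by 1 of 5 divisors between 56034275 and 57687235. More than 1 divisor was used within a table, so the deposited CPM differed from CPM over the library's own total by -2.98% to 2.84%. The libraries held 57386394 (young), 57622886 (old control) and 55969822 (old EPA) recovered counts.

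CPM were used as deposited and summed by symbol (63 rows with a repeated symbol), genes averaging 1 CPM or more were compared, and the log2 ratio of CPM + 1 was taken. Ratios of counts with 95% Clopper-Pearson intervals divided recovered counts by the library's own total. Exon lengths came from GENCODE M21, which matched 42170 of 42258 gene IDs, and upstream sequences from RefSeq (GRCm38.p6). An exon length is the union of the exons of all transcripts of a gene. Calculations used Python 3.11.15, pandas 2.3.3 and scipy 1.17.1, and were tested on simulated data. The genes, lists, comparisons and thresholds were chosen with earlier results of these data known. Named genes were all 10 slow genes with their fast counterparts, list genes past 1.5-fold or, where over 4 passed, the 4 with the highest mean, cardiac markers, and the 6 genes nearest in pattern. Others (Ppp3ca, Ppp3r1, Mef2c, Mef2d, Nfatc1, Nfatc4, Ppargc1a, Sox6, Myl6b, Myh8, Des, Adipoq, Mybpc2, Tpm3-rs7, Tpm3-rs2 and genes that overlap a counterpart) were named after their values were seen. Alternatives were 12 other settings for pseudocount, filter, scaling, length and fold.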

Additional observations from a re-analysis of the deposited data

How the results depend on the processing

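Each group is 1 library, so no library could be left out, and no paired analysis was possible because each group has 1 sample. None of the 10 slow genes changed direction in any comparison under the alternatives that alter a ratio, which the 2 filters and the 2 other folds do not. Nor did any of the 9 slow to fast pairs under the 4 that alter a pair's ratio: both other pseudocounts, counts over each library's total and the length trend subtracted. In old control against young, the myosin pair differed more than the troponin I pair with a pseudocount of 5 CPM and with the length trend subtracted, and less otherwise. The median log2 ratio of the slow genes ran from 0.58 to 0.64 in old control against young, from -0.31 to -0.24 in old EPA against old control and from 0.39 to 0.48 in old EPA against young. The counts moved mainly with the fold. At 2-fold, 2 slow genes were higher in old control than in young (0.895% of all genes), and 0 were higher and 0 lower in old EPA than in young. Thresholds of 25% higher and 20% lower are called the milder threshold here. There, 1 slow gene was lower in old control than in young (10.4% of all genes). In old EPA, 4 were lower than in old control (7.38%) and 6 were higher than in young (7.43%). With counts over each library's own total, 6 slow genes (Atp2a2 added) were 1.5-fold higher in old control than in young, and with the length trend subtracted 3 (Tnnc1 added) were higher in old EPA than in young. A pseudocount of 5 CPM left 1 slow gene higher in old EPA than in young. Of the regulators of the slow programme, 0 were 1.5-fold lower in old EPA than in young with a pseudocount of 5 CPM. Of the other slow fibre genes, 0 were higher in old control than in young with a pseudocount of 5 CPM, a mean of at least 5 CPM or 2-fold. At the milder threshold 6 of them were (9.13% of all genes). With a pseudocount of 0.1 CPM, 1 was lower in old EPA than in old control and 1 higher in old EPA than in young. At the milder threshold, 1 was higher (5.38% of all genes) and 2 were lower (7.38%) in old EPA than in old control. Against young, 2 were higher in old EPA (7.43%) and 1 was lower. Of the fast fibre genes, 1 (Mybpc2) was 1.5-fold higher in old control than in young, and 1 in old EPA than in young, with median of ratios scaling, with the trimmed mean of M values and with the length trend subtracted, which also gave a median of 0.16 in old EPA against young. At the milder threshold, 4 fast fibre genes were higher in old control than in young (9.13% of all genes). In old EPA, 1 was lower than in old control (7.38%) and 2 were higher than in young (7.43%). Apart from the alternatives whose construction changes the fold or the genes compared, the cause was not tested. Depth was not the limit for the slow genes, at 1037 counts or more, whereas differences between mice cannot be read from pooled RNA.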
